A study of Arabidopsis thaliana with 8 samples.

Results

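The genes described here are the nuclear genes of the 2 photosystems and of the small subunit of Rubisco in Arabidopsis thaliana, compared between wild type and voz1 voz2 seedlings. They were chosen by function, as the loci of the light-harvesting proteins (LHCB and LHCA), the nuclear-encoded subunits of photosystem II (PSB) and photosystem I (PSA), plastocyanin (PETE), the Rieske protein (PETC), the Rubisco small subunits (RBCS) and Rubisco activase (RCA). The list has 51 loci, all 51 were on the array with 52 probes, and all 51 were among the 24599 features tested. Every one was well above background on all 8 arrays.

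The study measured total RNA of whole seedlings, 14 days old, on 8 one-colour Agilent arrays, 4 of wild type and 4 of the voz1 voz2 double mutant. The wild type was Col-0, and the labels name no allele of either mutation. All seedlings were untreated and grew on half-strength Murashige and Skoog agar at 22 °C in days of 16 h light and 8 h dark. Markers of root, shoot epidermis with guard cells, and vascular tissue were well above background on all 8 arrays. Values below are log2 signals relative to each array's 75th percentile, differences are voz1 voz2 minus wild type, and a difference of 1 is 2-fold. A gene was called changed where the limma p-value, adjusted by Benjamini-Hochberg over all features tested, was under 0.05.

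The products of VOZ1 and VOZ2 are zinc-finger transcription factors that bind phytochrome B and promote flowering. VOZ2 had wild type values of 1.52, 1.09, 1.83 and 1.5 and mutant values of -3.93, -4.90, -3.84 and -4.36. VOZ1 had wild type values of 0.46, 0.49, 0.45 and 0.59 and mutant values of -0.98, -1.25, -0.93 and -0.86. Neither gene's genotypes overlapped. VOZ2 fell by 5.74 (SE 0.27) to a mutant mean of -4.26 ± 0.48 (SD, n = 4, limma adjusted p = 1.0e-04). VOZ1 fell by 1.5 (SE 0.13) to -1.01 ± 0.17 (SD, n = 4, limma adjusted p = 0.0015). Neither the labels nor the array files place these probes relative to the disruptions.

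In leaves, light is captured by chlorophyll bound to the LHC proteins, which pass the energy to the reaction centres of photosystem II and photosystem I. Electrons from water flow through photosystem II, the cytochrome b6f complex, plastocyanin and photosystem I, and Rubisco fixes carbon dioxide with the energy gained. The nuclear genes for these proteins are among the most strongly transcribed in green tissue, are induced by light through phytochromes, and in many cases exist as several near-identical copies.

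No photosystem or Rubisco gene passed the threshold in either direction. Over all features, 4.44% were called, 1.72% lower and 2.72% higher. The smallest adjusted p among the 51 was 0.083, for LHCB1.3. Of the 51 genes, 43 had a lower mean in voz1 voz2 (52.8% of all features did) and 8 had a higher one. The median difference was -0.30, against -0.030 over all features and -0.069 over the 2460 brightest features, which hold 47 of the 51. The differences ran from -0.80 for LHCB1.3 to 0.63 for LHCB4.3. At an unadjusted p under 0.05 there were 2 lower genes, LHCB1.3 and PSBO2 (11.8% of all features), and 1 higher gene, LHCB4.3 (11.7%).

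The size of change that the intervals leave room for differs between genes. These intervals come from the fit without a term for the 2 slides that held the arrays. With slide added to the fit, the SE fell from 0.45 to 0.16 for PSBS and from 0.48 to 0.13 for LHCB1.5. For LHCA4 it was 0.23 either way. Intervals from the fit with slide are not given here. The 95% interval lay within 2-fold in both directions for 37 of the 51 genes. It reached a 2-fold lower level for 13 genes, where it did for 21.4% of all features, and a 2-fold higher level for LHCB4.3. The widest interval was that of LHCB4.1, measured on 2 arrays of each genotype, from -1.42 to 0.89, and the narrowest was that of PSAH1, from -0.15 to 0.46.

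**Figure D1:**
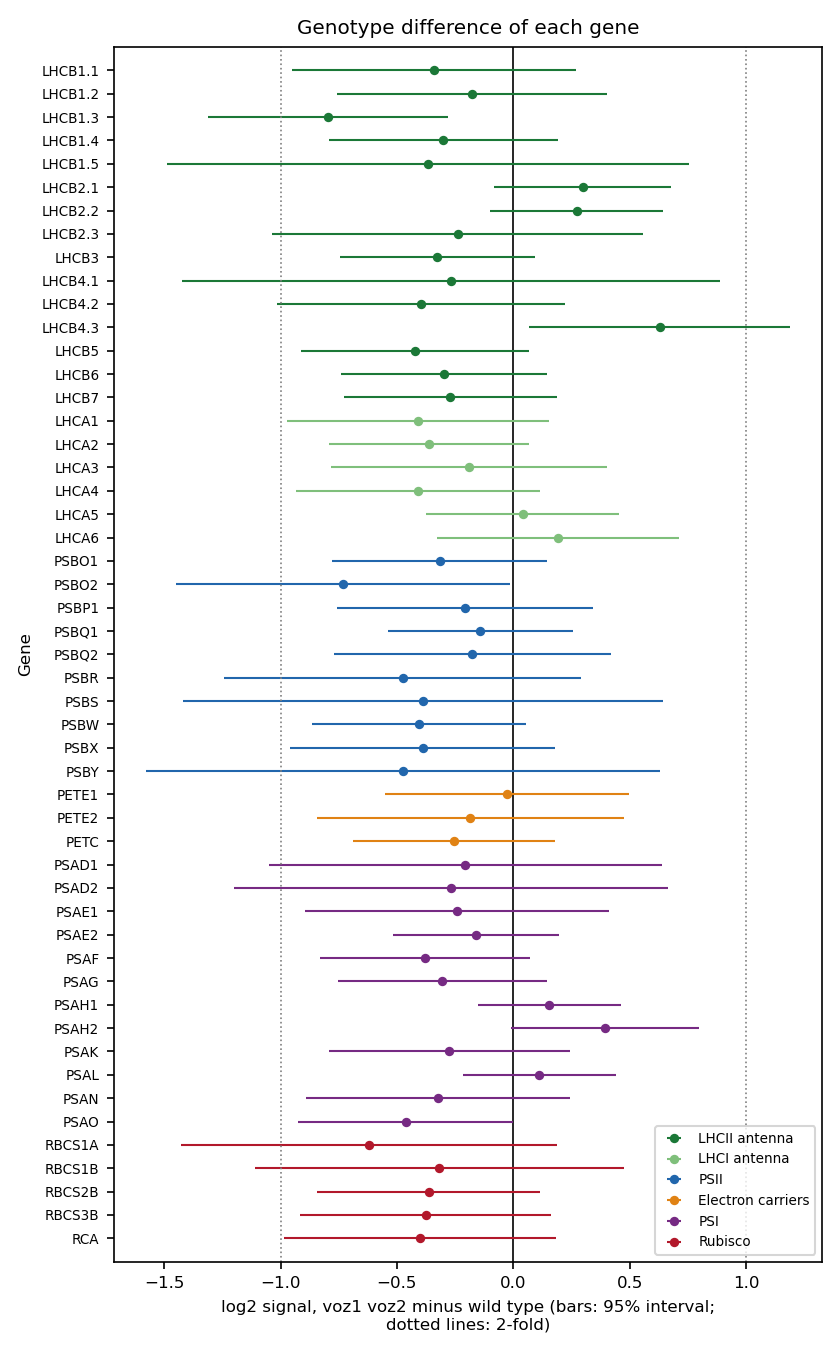
Difference in log2 signal between voz1 voz2 and wild type for each of the 51 genes (points, coloured by role), with 95% intervals from limma (bars) and dotted lines at 2-fold. Most points lie left of 0, from -0.80 for LHCB1.3 to 0.63 for LHCB4.3, and most bars cross 0.

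One array set much of the wild type spread. Wild type replicate 4 was the highest of the 8 arrays in 23 of the 36 genes that had a value on every array, against 18% of all features with 8 values. Wild type replicate 3 was highest in 7 of these genes and a mutant array in 5. Without wild type replicate 4 the median difference over the genes was -0.15, with 36 of 50 below 0, and LHCB1.5, LHCB4.1, RBCS1B, PSAD1, PSAD2 and PETE2 changed sign. PSBO2 could not be fitted without it, because replicate 4 held its only wild type value.

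**Figure D2:**
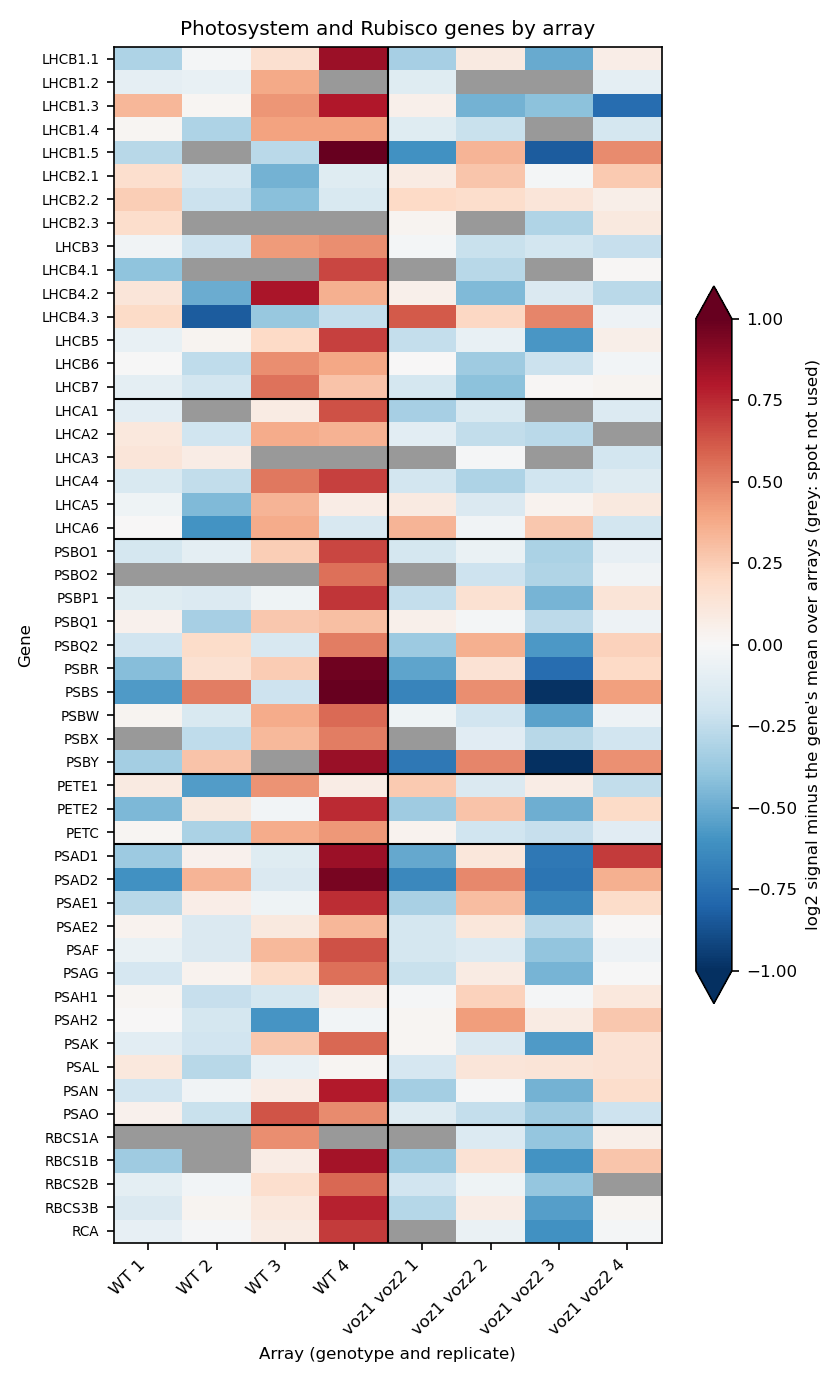
Log2 signal of each gene on each array minus the gene's mean over the arrays (red higher, blue lower, grey not used because of an outlier flag), with genes grouped by role and arrays by genotype. The wild type replicate 4 column is the reddest, and it was the highest array in 23 of 36 genes with all 8 values.

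The mean over these 36 genes was 5.11 ± 0.28 in wild type (SD, n = 4), with arrays from 4.87 to 5.48. It was 4.92 ± 0.16 in voz1 voz2 (SD, n = 4), with arrays from 4.71 to 5.05, so the genotypes overlapped. Root markers were measured on the same arrays, and their list means also overlapped between genotypes. The mean over the 18 root markers, all of them well above background on the 8 arrays, was -2.09 ± 0.94 in wild type, from -3.34 to -1.08, and -1.10 ± 0.40 in voz1 voz2, from -1.39 to -0.50 (SD, n = 4 each). Wild type replicate 4 had the lowest root marker mean, and was the lowest array for 14 of the 18. The median difference of the root markers was 1.1 and 16 of 18 were above 0, the exceptions, singled out for that reason, being SCR at -0.45 and PYK10 at -0.05. Only WOX5, a regulator of the root quiescent centre, was called, with wild type values of -5.72, -5.99, -5.74 and -5.89 and mutant values of -5.35, -5.0, -4.92 and -5.32. Its difference was 0.69 (SE 0.15, limma adjusted p = 0.045), and leaving out any 1 array lost the call, at adjusted p of 0.066 to 0.13. WOX5 was dim, within the tenth of features with mean levels from -6.15 to -4.67. Over the other ways of processing, its difference ran from 0.15 to 0.78. Means over 7 shoot epidermis and guard cell markers were 0.76 ± 0.22 and 0.92 ± 0.14, and over 6 phloem and xylem markers -0.12 ± 0.42 and 0.15 ± 0.25 (SD, n = 4 each, wild type first). In RNA of whole seedlings, fewer green cells and less RNA of these genes per cell cannot be told apart, and the part of tissue make-up in the lower means was not tested.

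**Figure D3:**
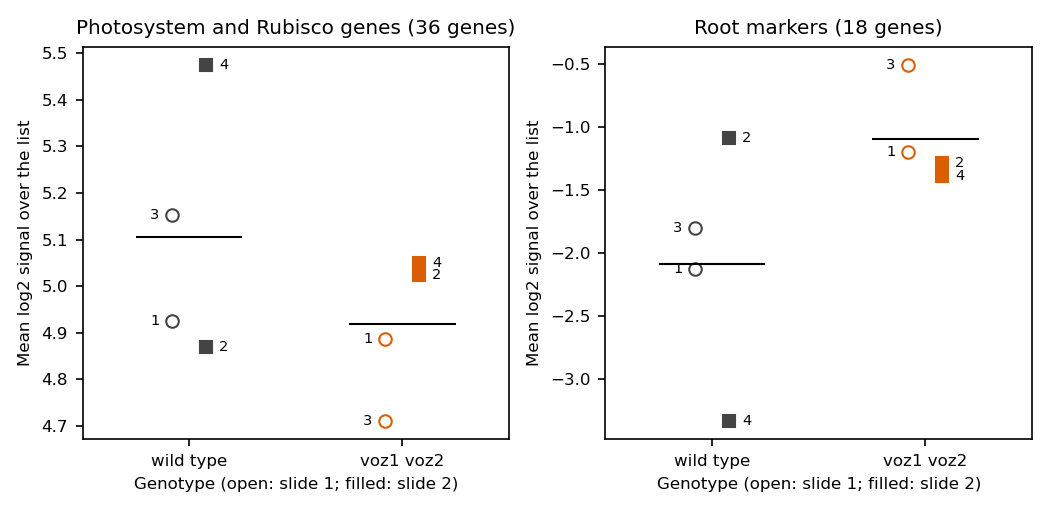
Mean log2 signal per array over 36 photosystem and Rubisco genes (left) and over 18 root markers (right), by genotype, with replicate numbers beside the points, open circles for slide 1, filled squares for slide 2 and a line at the genotype mean. Wild type replicate 4 is the highest point on the left (5.48) and the lowest on the right (-3.34).

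Spots of these genes were also left out more often than others. The scanner software flagged 34 of 408 gene values (8.33%) as spots of uneven brightness, against 0.160% of the values over all features, and 15 of the 51 genes lacked at least 1 array. For many of these genes the software had taken the signal from a second scan at lower gain and scaled it up. This held on all 8 arrays for 37 genes, on some arrays for 10, and on none for LHCB1.3, LHCB2.1, LHCB2.2 and LHCB7. No spot was saturated.

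Missing values bear on which genotypes appear separate. In 6 genes (LHCB1.2, LHCB2.3, LHCA1, LHCA3, RBCS1A and PSBO2) every mutant value measured lay below every wild type value, but all 6 lacked arrays (7.85% of all features were separate in this direction). Among the 36 genes with 8 values none was separate below and 1, PSAH2, was separate above, where 7.81% and 8.48% of features with 8 values and 8.46% of all features above were. With the flagged spots kept, 1 gene was separate below, LHCB1.2, and PSAH2 above.

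The major light-harvesting antenna of photosystem II is built from LHCB1, LHCB2 and LHCB3 proteins, with LHCB4, LHCB5 and LHCB6 as minor antennae next to the core. With the rare LHCB7 these are 15 genes, of which none was called, 12 had a lower mean in voz1 voz2, and the median difference was -0.30. LHCB1.3 (AT1G29930), one of 3 adjacent LHCB1 copies, had wild type values of 2.08, 1.76, 2.18 and 2.55 and mutant values of 1.79, 1.27, 1.34 and 0.98. The second wild type array lay just below the first mutant array, so the genotypes overlapped. The difference was -0.80 (SE 0.23), a 1.74-fold lower mean, with a 95% interval from -1.31 to -0.28 and a limma adjusted p of 0.083.

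None of the other LHCB1 copies was called. The LHCB1.3 probe was far dimmer than theirs, with a wild type mean of 2.14. Wild type means were 6.21 for LHCB1.1, 6.80 for LHCB1.2, 6.46 for LHCB1.4 and 5.63 for LHCB1.5. LHCB1.1 differed by -0.34 (SE 0.27), LHCB1.2 by -0.18 (SE 0.23), LHCB1.4 by -0.30 (SE 0.21) and LHCB1.5 by -0.37 (SE 0.48), and each 95% interval included 0. LHCB1.2 rests on 3 wild type and 2 mutant arrays, and with flagged spots kept it differed by -0.49 (SE 0.19, limma adjusted p = 0.17). LHCB1.1, LHCB1.2 and LHCB1.3 are neighbours in the RefSeq gene order, as are LHCB1.4 and LHCB1.5. The copies are nearly identical in their coding regions, so a probe may also have bound RNA of another copy, and the values of single copies are uncertain.

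LHCB6 (AT1G15820), a minor antenna protein that links the core to the outer antenna, stood at 7.16, 6.91, 7.63 and 7.55 in wild type and at 7.17, 6.81, 6.94 and 7.13 in voz1 voz2. Wild type replicates 3 and 4 were above all mutant arrays, and the other two wild type arrays were among them. The difference was -0.30 (SE 0.19, limma adjusted p = 0.39). LHCB3 differed by -0.33 (SE 0.18), LHCB5 by -0.42 (SE 0.21) and LHCB4.2 by -0.40 (SE 0.27), none past the threshold.

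Higher means in the mutant were seen for 3 antenna genes, which were singled out after their values were seen. LHCB4.3 (AT2G40100), the divergent copy of the LHCB4 family, had wild type values of 3.86, 2.84, 3.29 and 3.43 and mutant values of 4.28, 3.88, 4.16 and 3.62. Its highest wild type array, replicate 1, exceeded the mutant replicate 4 array, so the groups overlapped. The difference was 0.63 (SE 0.24), a 1.55-fold higher mean, with a limma adjusted p of 0.17. It was 0.65 on slide 1 and 0.61 on slide 2.

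LHCB2.1 and LHCB2.2 encode near-identical proteins of the trimeric antenna. They differed by 0.30 (SE 0.17) and 0.27 (SE 0.16). Their wild type means of 1.02 and 0.45 were low beside most photosystem genes, but above the 75th percentile of the arrays. The third copy, LHCB2.3, had 1 wild type value, 5.78, and a mutant mean of 5.54 ± 0.21 (SD, n = 3). Relative to the median array signal rather than the 75th percentile, LHCB2.1, LHCB2.2 and LHCB4.3 kept their sign. In the deposited values, whose features as a whole shift by -0.37, LHCB2.1 and LHCB2.2 lay at -0.040 and -0.066.

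The antenna of photosystem I is a belt of LHCA1 to LHCA4, while LHCA5 and LHCA6 are minor members that join photosystem I to the NDH complex. None of the 6 genes was called, and the median difference was -0.28 with 4 below 0. LHCA4 (AT3G47470) had wild type values of 6.19, 6.10, 6.87 and 7.03 against mutant values of 6.16, 6.04, 6.15 and 6.21. The mutant arrays lay close together and the wild type spread came from replicates 3 and 4. The difference was -0.41 (SE 0.23, limma adjusted p = 0.32).

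LHCA1 (AT3G54890) was measured at 6.38, 6.57 and 7.12 in wild type replicates 1, 3 and 4 and at 6.16, 6.34 and 6.35 in mutant replicates 1, 2 and 4. All 3 mutant values lay below the 3 wild type ones, with 1 array of each genotype missing. The difference was -0.41 (SE 0.23, limma adjusted p = 0.34). LHCA2 and LHCA3 differed by -0.36 (SE 0.18) and -0.19 (SE 0.22). LHCA3 rests on 2 arrays of each genotype, and with flagged spots kept it differed by -0.50 (SE 0.20, limma adjusted p = 0.18). LHCA5 and LHCA6 differed by 0.04 (SE 0.18) and 0.19 (SE 0.23).

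In photosystem II the nuclear genes encode the extrinsic proteins of the oxygen-evolving complex (PSBO, PSBP, PSBQ), small membrane subunits (PSBR, PSBW, PSBX, PSBY) and PSBS, the sensor for heat dissipation of excess light. All 10 genes had a lower mean in voz1 voz2, with a median of -0.39, and none was called. PSBO2 (AT3G50820), one of 2 copies of the manganese-stabilising protein, had 1 wild type value of 6.73, in replicate 4, and mutant values of 5.97, 5.87 and 6.14. Its difference of -0.73 (SE 0.27, limma adjusted p = 0.20) therefore rests on the wild type array that was highest in most of these genes. With flagged spots kept, PSBO2 had all 8 values and differed by -0.25 (SE 0.21, limma adjusted p = 0.50). The other copy, PSBO1, measured on all arrays, differed by -0.32 (SE 0.20).

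PSBW (AT2G30570), a small subunit that stabilises the photosystem II supercomplex, had wild type values of 6.73, 6.55, 7.07 and 7.27 and mutant values of 6.66, 6.51, 6.17 and 6.65. The genotypes overlapped through wild type replicate 2. The difference was -0.41 (SE 0.20, limma adjusted p = 0.26). PSBR and PSBY differed by -0.48 (SE 0.34) and -0.47 (SE 0.47), where PSBY stood at -0.31 with flagged spots kept, and PSBQ1 and PSBQ2 by -0.14 (SE 0.17) and -0.18 (SE 0.26).

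The electron carriers are 3 genes, all with a lower mean in voz1 voz2, a median of -0.18 and no call. PETC (AT4G03280), the Rieske iron-sulfur protein of cytochrome b6f, stood at 6.09, 5.76, 6.44 and 6.51 in wild type and 6.10, 5.87, 5.84 and 5.96 in voz1 voz2. Wild type replicates 3 and 4 lay above all mutant arrays and replicate 2 below them. The difference was -0.26 (SE 0.19, limma adjusted p = 0.45). The plastocyanin genes PETE1 and PETE2, which carry electrons to photosystem I, differed by -0.03 (SE 0.23) and -0.18 (SE 0.29).

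Photosystem I genes encode the stromal docking site for ferredoxin (PSAD, PSAE), the plastocyanin docking subunits (PSAF, PSAN) and subunits next to the antenna or LHCII (PSAG, PSAH, PSAK, PSAL, PSAO). Of 12 genes none was called, 9 were below 0 and the median was -0.26. PSAO (AT1G08380), which helps bind LHCII to photosystem I, had wild type values of 6.63, 6.36, 7.22 and 7.06 and mutant values of 6.46, 6.35, 6.23 and 6.38. Wild type replicate 2 fell within the mutant range and the other 3 lay above it. The difference was -0.46 (SE 0.20, limma adjusted p = 0.21), with a 95% interval from -0.93 to 0.001.

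PSAH2 (AT1G52230), a docking subunit for LHCII named after its values were seen, was the one gene with all 8 values whose genotypes did not overlap. Its wild type values were 3.30, 3.12, 2.70 and 3.27 and its mutant values 3.31, 3.71, 3.37 and 3.56. The gap between the highest wild type and the lowest mutant array was small beside the spread within wild type. The difference was 0.39 (SE 0.18, limma adjusted p = 0.22). The second copy, PSAH1, differed by 0.16 (SE 0.13) and PSAL by 0.11 (SE 0.14).

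Rubisco small subunits are encoded by RBCS1A and 3 neighbouring RBCS-B copies, and RCA is the chaperone that clears inhibitors from the enzyme. All 5 genes had a lower mean in voz1 voz2, with a median of -0.38, and none was called. RBCS2B (AT5G38420) had wild type values of 6.26, 6.32, 6.52 and 6.92 and mutant values of 6.16, 6.31 and 5.96 in replicates 1 to 3. Mutant replicate 2 lay between the 2 lowest wild type arrays. The difference was -0.36 (SE 0.20, limma adjusted p = 0.33).

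RBCS1A (AT1G67090) had 1 wild type value, 6.59 in replicate 3, against mutant values of 5.98, 5.74 and 6.18 in replicates 2 to 4. Its difference of -0.62 (SE 0.30, limma adjusted p = 0.31) compares 1 array with 3, and with flagged spots kept it was -0.36 (SE 0.20, limma adjusted p = 0.32). RBCS1B, RBCS3B and RCA differed by -0.32 (SE 0.34), -0.38 (SE 0.24) and -0.40 (SE 0.25). Probes of the 3 neighbouring copies may share signal, so their values are uncertain one by one.

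The arrays lay on 2 slides, with replicates 1 and 3 of both genotypes on slide 1 and replicates 2 and 4 on slide 2. With slide as a block, 2 genes passed the threshold as lower, where 7.95% of all features did, and none as higher, where 8.13% did. They were LHCB1.3 at -0.80 (SE 0.21, limma adjusted p = 0.048) and LHCB1.5 at -0.58 (limma adjusted p = 0.036). LHCB1.5 lacked wild type replicate 2, and with its flagged spot kept it stood at -0.39 and was not called (limma adjusted p = 0.18). Without wild type replicate 4 neither was called under the block. With the replicate number as a block none of the 51 was called, where 6.74% of features were called in each direction.

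Within slide 1 the median difference was -0.33 and within slide 2 it was -0.26. Of the 46 genes measured in both genotypes on both slides, 37 were below 0 on both and 6 were above 0 on both. The shares of all features with the same sign on both slides were not computed. LHCB1.3 differed by -0.57 on slide 1 and by -1.03 on slide 2.

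Several genes differed between the slides by more than between the genotypes. In the fit with both terms, 10 of the 51 were higher on slide 2 (14.4% of all features were) and 1, LHCA6, was lower (14% were), where 28.3% of features passed the slide term in all. The slide difference from this fit was larger in size than the genotype difference from the fit without slide in 22 of the 51. The share of all features with this was not computed. The genes higher on slide 2 were named after their values were seen, and they came from every role but the LHCI antenna. LHCB1.5 was higher by 1.25 (SE 0.13), PSBS by 1.21 (SE 0.16), PSBY by 1.18 (SE 0.19) and PSAD2 by 1.06 (SE 0.17), with limma adjusted p of 0.0020 to 0.0090. PSAD1, RBCS1B, PSBR, PETE2, PSAE1 and PSBQ2 were higher by 0.64 to 0.86.

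The arrays of PSBS (AT1G44575) show the pattern. Its wild type values were 4.32 and 4.67 on slide 1 and 5.40 and 5.92 on slide 2. Its mutant values were 4.22 and 3.90 on slide 1 and 5.35 and 5.29 on slide 2. No array of slide 1 reached the lowest of slide 2, in either genotype. The genotypes differed by -0.39, with an SE of 0.45 in the fit without slide. With slide as a block the SE was 0.16, and PSBS was not called (limma adjusted p = 0.12).

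Copies of a gene did not share the slide difference in every family. LHCB1.4 differed between slides by -0.13 (SE 0.20) and PETE1 by -0.44 (SE 0.16), neither past the threshold, whereas LHCB1.5 and PETE2 did pass it. The difference between copies was not tested. The count of 10 was 9 with flagged spots kept, 12 after normexp background correction, 18 after quantile normalization, 5 after median scaling, 46 in the deposited values and 5 to 16 without one array. The share of all features past the slide threshold was not computed for these alternatives. No array is scaled in the deposited values. Their natural log medians per array ran from -2.67 to -1.96 on slide 1 and from -1.98 to -1.28 on slide 2. Slide, scan and anything else that replicates of a slide had in common cannot be told apart.

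**Figure D4:**
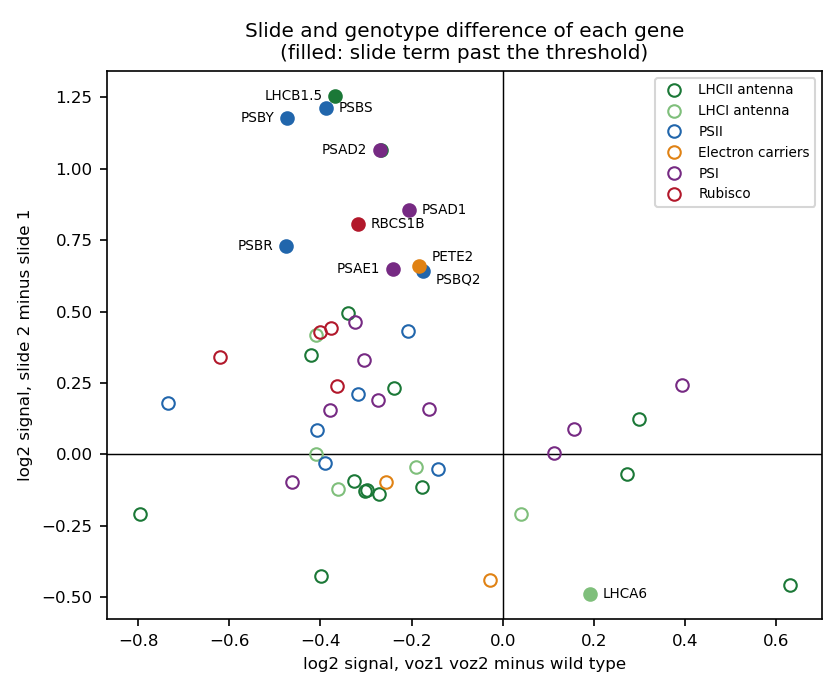
Slide difference (slide 2 minus slide 1, y axis) against genotype difference (voz1 voz2 minus wild type, x axis) of the 51 genes, both in log2 signal and both from limma fits, coloured by role and filled where the slide term passed the threshold. Named genes reach 1.25 on the slide axis (LHCB1.5), while genotype differences run from -0.80 to 0.63.

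Other genes of the photosynthetic pathway were listed too. Of 76 genes in 6 lists, 1 was called lower (1.72% of all features were) and 1 higher (2.72% were). A lower mean in voz1 voz2 was seen for 52 of them, and for 52.8% of all features. The median difference was -0.25 for 11 genes of electron transport and ATP synthase (9 below 0), -0.29 for 9 genes of photosystem assembly and regulation (8 below 0), -0.13 for 16 Calvin cycle genes (13 below 0) and -0.35 for 12 nuclear regulators (11 below 0). It was -0.016 for 7 other LHC-related genes (4 below 0) and 0.17 for 21 genes of chlorophyll synthesis (7 below 0).

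The called genes were ELIP1 and PORA. ELIP1, a stress-induced relative of the LHC proteins that binds chlorophyll under excess light, had wild type values of 2.51, 2.68, 3.14 and 2.99 and mutant values of 3.97, 4.06, 5.04 and 4.17. Every mutant array was above every wild type array. ELIP1 rose by 1.48 (SE 0.26, limma adjusted p = 0.023), or 2.79-fold, and its adjusted p was between 0.029 and 0.061 without one array, and the call was lost by leaving out the first or the fourth wild type array or the second mutant array. The related ELIP2 differed by 0.11 (SE 0.31).

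PORA, the protochlorophyllide reductase of dark-grown seedlings, had wild type values of -2.18, -2.04, -2.90 and -3.26 and mutant values of -4.90, -4.21, -5.31 and -5.36. The genotypes did not overlap. PORA fell by 2.35 (SE 0.35, limma adjusted p = 0.012), or 5.09-fold, and its adjusted p stayed between 0.016 and 0.041 without one array. PORB and PORC, the reductases of green tissue, differed by 0.17 (SE 0.26) and 0.34 (SE 0.59). After normexp background correction PORA differed by -1.06 and neither it nor ELIP1 was called.

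With slide as a block, 4 of the 76 were called lower and 6 higher, where 7.95% and 8.13% of all features were, so neither count stands above the background. The lower ones were PORA, the thylakoid kinase STN7 at -0.57, the violaxanthin de-epoxidase VDE1 at -0.75 and the plastid sigma factor SIG5 at -0.60. The higher ones were ELIP1, the phosphoglycerate kinase PGK2 at 1.0, and 4 enzymes of chlorophyll synthesis, GSA2 at 0.58, HEMF1 at 0.47, CHLI2 at 0.44 and DVR at 0.51. With the replicate number as a block, PGK2, HEMF1, CHLI2 and DVR were not called, at limma adjusted p of 0.063, 0.052, 0.065 and 0.074. SIG5, DVR and the relatives ELIP2, PORB, PORC and GLK2 were named after their values were seen. GLK1, a transcription factor that activates photosystem genes, differed by 0.51 (SE 0.23) and its partner GLK2 by -0.32 (SE 0.17), neither called with or without the block.

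How far the photosystem and Rubisco genes lay from 0 depended on the scaling of the arrays. The median difference was -0.42 when arrays were scaled to their median, which moves all features to -0.15, and -0.64 in the deposited values, which move all features to -0.37. Relative to all features it was -0.27 as reported, after median scaling and in the deposited values alike. These scales differ only by a constant per array, which moves all features together. Apart from missing values the match was therefore fixed in advance. After quantile normalization the median was -0.051, against -0.020 over all features, with 33 of 51 below 0. Quantile normalization gives the same value to probes of the same rank, and 8 of the 10 brightest features and 31 of the 100 brightest belong to the 51 genes.

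**Figure D5:**
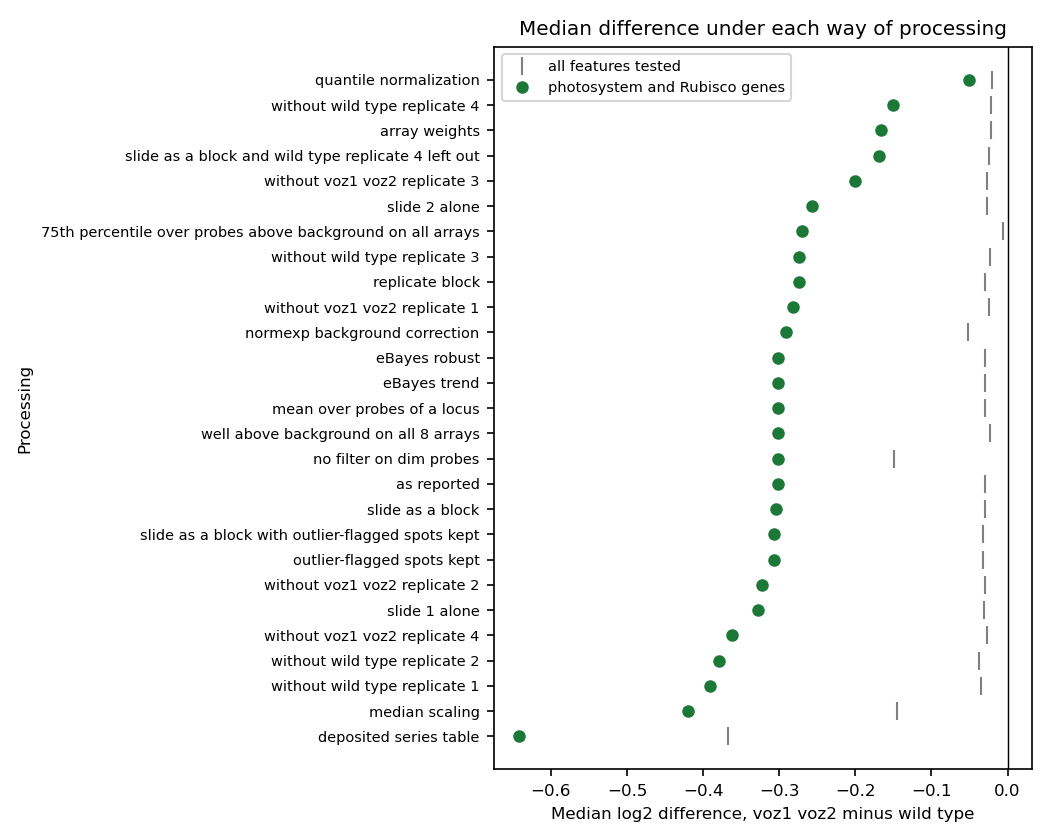
Median genotype difference in log2 signal (x axis) over the 51 genes (circles) and over all features tested (grey bars) under each way of processing the arrays (y axis). The genes' median lies left of that of all features in each, from -0.64 in the deposited table to -0.051 after quantile normalization.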

How the data were processed

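Total RNA (0.8 µg, labelled with Cy3) of 14-day-old whole seedlings was hybridised to 8 one-colour arrays, 4 per genotype, and the titles gave each sample's group and replicate number. The labels do not say whether replicates were grown apart, so p-values measure only the spread among these samples, possibly a technical one. Agilent Feature Extraction 9.1.3.1 produced the intensity values, per the submitters' processing notes. The processed intensity is already background-subtracted, and the software's flags mark spots well above background, saturated spots, spots scaled up from a scan at lower gain and outliers, per the file headers. In the deposited series table the values are on a natural log scale. Each equals that log of the processed signal less a constant of 6.42 on wild type and 6.91 on mutant arrays, with medians from -2.67 to -1.28 per array. That table served only as an alternative, and no array in it is scaled.

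Here, log2 processed signals were averaged per probe, outlier-flagged spots were left out, and each array's 75th percentile over its 37478 non-control probes was subtracted. Features well above background on at least 4 of 8 arrays were tested, with the brightest probe per locus (only LHCA5 of the genes described has a second probe), by limma 3.58.1 (lmFit, eBayes; R 4.3.3), and p-values were adjusted by Benjamini-Hochberg over 24599 features and a threshold of 0.05. Between 60.4% and 70.3% of probes per array were well above background, and array correlations within a genotype were 0.96 to 0.99. The number of arrays limits the precision. Fits were tested on simulated data with independent noise, no slide difference and no missing values, so that test does not bear on these.

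The photosystem and Rubisco genes, the 76 other photosynthesis genes and the marker lists were chosen with earlier results of these data known. Since none of the 51 passed the threshold, their array values are given by rule for the gene of highest mean and the one of largest difference in each role. Up to 4 genes of smallest p in each other list may be named, with VOZ1 and VOZ2. Where another gene is named, the text says that its values had been seen first. All 51 loci and all 109 other loci were found in RefSeq's gene table (TAIR10.1), which calls LHCB1.1 to LHCB1.3 CAB2, CAB3 and CAB1, PSBS NPQ4 and PETE2 DRT112. It was used for names and gene order only, and promoter and protein sequences were not analysed here.

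Slides hold 2 arrays of each genotype, and slide and replicate number were each fitted as a block. The same-numbered arrays of both genotypes deviated together from the genotype means, with correlations over features of 0.32, 0.51, 0.46 and 0.61. Arrays of the same slide with other numbers correlated at 0.27 to 0.54. Mutant replicate 1 followed wild type replicate 3 (0.54) more than wild type replicate 1 (0.32), while mutant replicates 2, 3 and 4 followed their own number most. These values do not tell pairing by number from a shared slide. Alternatives were median scaling, quantile normalization, a percentile over probes above background on all arrays, normexp background correction (offset 50) on median spot and background signals, the deposited table, other filters and probe rules, eBayes trend and robust, array weights, each slide alone and leaving out each array. The spot mean signal was not used, since the scanner output read here lacks that column.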

Additional observations from a re-analysis of the deposited data

Results flagged for a closer look

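A single array stood apart from the other 3 of its genotype, beyond Dixon's 95% critical value for groups of 4, in 4 cases, and chance alone gives such a result in about 1 of 20 groups. Among the photosystem genes, mutant replicate 1 was the lowest for PSAL at 4.08, against 4.37 for the next array, and wild type replicate 4 was the highest for PSBP1 at 6.66, against 5.91. There were 79 groups of 4 values among these genes. Among the other genes named, wild type replicate 3 was the lowest for CP12-2, a regulator of the Calvin cycle, at -1.27, against 0.97, and wild type replicate 4 was the lowest for GLK1 at 1.06, against 1.91.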

How the results depend on the processing

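Counts of called photosystem and Rubisco genes were 0 in both directions under each alternative but 2: with slide as a block there were 2 lower genes, and with flagged spots also kept there was 1. The replicate block changed none of these calls. Among the 76 other photosynthesis genes, the count of 1 lower was 0 with normexp, in the deposited values and on each slide alone, and 4 with slide or replicate block or with slide as a block and flagged spots kept. The count of 1 higher was 0 with normexp, in the deposited values and on each slide alone, 6 with slide as a block, 5 with flagged spots also kept, 2 with the replicate block, with eBayes trend or with slide as a block and wild type replicate 4 left out, and 0 to 1 without one array (wild type replicate 1 or 4 or mutant replicate 2). The median of the 51 genes was -0.051 after quantile normalization, -0.64 in the deposited values and -0.39 to -0.15 without one array. VOZ1 missed the threshold in the deposited values (-1.84), on slide 1 (-1.41) and on slide 2 (-1.59), and VOZ2 on slide 1 (-5.56) and slide 2 (-5.93), each slide having 2 arrays per genotype. Over all features, 94 were called with normexp, 70 in the deposited values, 715 with median scaling, 514 with no filter, 3955 with slide and 3314 with the replicate block, 0 on either slide alone and 387 to 1506 without one array, against 1091.

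LHCB1.5 was the one gene that was called under an alternative (slide as a block) and had the opposite sign under another. Quantile normalization turned LHCB4.1 to 0.0023, LHCA1 to 0.013, PSAD1 to 0.018, PSAK to 0.057, PSBP1 to 0.032, PSBQ1 to 0.029, PETE1 to 0.098, PETE2 to 0.026, PETC to 0.0081 and ATPC1 to 0.025, and set LHCB6, whose probe ranked first on all 8 arrays, to 0 by its construction. The deposited values turned LHCB2.1 to -0.040, LHCB2.2 to -0.066, LHCA5 to -0.30, LHCA6 to -0.15, PSAH1 to -0.18, PSAL to -0.23 and PGRL1B to -0.080. Median scaling turned LHCA5 to -0.075 and PSAL to -0.0032, normexp turned LHCA3 to 0.057, and array weights turned PSAD1 to 0.042, PSAD2 to 0.050 and PETE2 to 0.032. Slide 1 alone gave LHCA5 -0.081 and PSAL -0.036, slide 2 alone gave PETE1 0.047, and slide as a block with wild type replicate 4 left out gave PETE1 0.082. Without one array, ranges crossed 0 for LHCB1.5 (-0.61 to 0.12), LHCB4.1 (-0.80 to 0.27), LHCA5 (-0.10 to 0.16), RBCS1B (-0.59 to 0.0074), PSAD1 (-0.47 to 0.044), PSAD2 (-0.52 to 0.0024), PETE1 (-0.22 to 0.12) and PETE2 (-0.37 to 0.034). The cause of these changes was not tested.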

Other observations

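The slide difference reached beyond the photosystem genes. Of the 76 other photosynthesis genes, 24 were higher on slide 2 and 4 were lower, where 14.4% and 14% of all features were. Named after their values were seen, the largest of these by list were PORC, a protochlorophyllide reductase of green tissue, at 1.65, HEMA1, which makes the first committed precursor of chlorophyll, at 1.31, FNR1, the ferredoxin reductase, at 1.43, PSB27, an assembly factor of photosystem II, at 1.27, CP12-1 of the Calvin cycle at 1.13 and the sigma factor SIG2 at 1.2. None of the 7 other LHC-related genes passed the threshold for slide.

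Between genotypes, 14 of 21 genes of chlorophyll synthesis had a higher mean in voz1 voz2, where most photosystem genes had a lower one, and of these 21 only PORA was called without a block. Named after their values were seen, CRD1 and CHLH, which act in the middle of the pathway, differed by -0.43 (SE 0.19) and -0.42 (SE 0.30), and the chlorophyll synthase gene CHLG by 0.18 (SE 0.13).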
